A study of Mus musculus with 6 samples.

Results

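The tumor necrosis factor (TNF) superfamily was examined in the spleen of 2 groups of F1 mice: its ligand genes, its receptor genes and 1 transcript from the strand opposite Tnfsf13. Members were the probe sets with a single platform gene symbol that began with Tnfsf or Tnfrsf and a digit or was Tnf, Lta, Ltb, Ltbr, Cd27, Cd40, Cd40lg, Cd70, Fas or Fasl. This gave 59 probe sets for 37 of the 18193 genes measured, namely 13 ligands, 23 receptors and Tnfsf13os, and each gene was represented by its brightest probe set over the 6 arrays. The mice were adult females. One group of 3 was (AKR/J x FVB/NJ)F1, here AKR F1 (the AKR/J cross in the figures), and the other group of 3 was (DBA/2J x FVB/NJ)F1, here DBA F1 (the DBA/2J cross). All 6 samples therefore carry an FVB/NJ genome, and the labels give no treatment before tissue collection. The comparison asks how basal spleen expression differs between the genotypes. Each label names 1 numbered spleen sample, measured on 1 Affymetrix array, and does not say that the samples of a group are separate animals, so p-values measure the spread between these samples. An F1 animal has 1 allele from each parent, and the array sums the signal of both.

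Ligands of this family are mostly membrane-anchored trimers that can be shed, and their receptors carry cysteine-rich repeats outside the cell. Some receptors hold a death domain and recruit caspases, whereas others bind TRAF adaptors and lead to the transcription factor NF-kB. In the spleen the lymphotoxins made by lymphocytes act on stromal LTBR to keep follicles and marginal zone in order, BAFF sustains B cells, and CD27, GITR, OX40 and 4-1BB are costimulatory receptors of T cells.

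All values are on the deposited log2 scale, and a difference is AKR F1 minus DBA F1, so that positive values stand for more signal in AKR F1. Array medians were 5.04 to 5.079 in AKR F1 and 5.083 to 5.096 in DBA F1. The SD over the probe sets of an array was 2.322 to 2.336 in AKR F1 and 2.255 to 2.275 in DBA F1. Median and spread of the arrays thus differed slightly with the group. The mean of 7 pancreatic acinar genes was 13.90 to 13.94 in AKR F1 and 13.41 and 13.75 in DBA F1 replicates 1 and 2. These 5 arrays, all labelled spleen and all of AKR F1 among them, thus held strong signal of pancreatic genes. The source of that signal was not tested. DBA F1 replicate 3 differed from them, with a mean of 6.55. Without that array the differences of the 5 family genes that passed with all arrays were 0.48 for Cd27, 0.37 for Tnfrsf1b, 0.33 for Tnfrsf18, -0.24 for Tnfrsf10b and -0.43 for Tnfsf13os, with adjusted p of 0.0876, 0.0623, 0.117, 0.113 and 0.0630 in limma. The spleen markers Nkx2-5, Nkx2-3, Tlx1 and Tcf21 had a mean of 7.66 to 7.94 in every array. T cell markers were higher in AKR F1 for 9 of 9 genes (list mean 8.51 to 8.59, against 8.001 to 8.08), and erythroid markers were higher in DBA F1 for 7 of 7 (9.56 to 10.41, against 7.86 to 8.53). The B cell list had 3 of 7 genes higher in AKR F1 (10.64 to 10.81, against 10.38 to 10.67), and dividing-cell markers were higher in DBA F1 for 5 of 5. Of all genes, 8.91% passed as higher in AKR F1 and 8.31% as higher in DBA F1 in limma. In whole spleen, fewer cells of a type and less RNA per cell cannot be told apart.

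Promoters are shown for the receptor genes that were higher in AKR F1, and for Ltb, whose promoter holds a match to the kappa B motif of NF-kB. The sequences are from RefSeq on build GRCm38.p6 (the C57BL/6J reference, not a parent of these mice), run 5′ to 3′ and end at the last base before the annotated start. Capitals mark matches to the kappa B motif, the GC box GGGCGG, the Runx core TGTGGT or TATAAA, on either strand.
Cd27, a costimulatory receptor of T cells, chr6:125237028-125237277, minus strand: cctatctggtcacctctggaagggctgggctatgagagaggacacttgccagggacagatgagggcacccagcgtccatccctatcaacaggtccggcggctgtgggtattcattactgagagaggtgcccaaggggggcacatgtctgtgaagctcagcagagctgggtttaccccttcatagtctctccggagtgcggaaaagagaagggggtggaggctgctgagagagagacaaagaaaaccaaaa
Tnfrsf1b, TNF receptor 2, chr4:145246871-145247120, minus strand: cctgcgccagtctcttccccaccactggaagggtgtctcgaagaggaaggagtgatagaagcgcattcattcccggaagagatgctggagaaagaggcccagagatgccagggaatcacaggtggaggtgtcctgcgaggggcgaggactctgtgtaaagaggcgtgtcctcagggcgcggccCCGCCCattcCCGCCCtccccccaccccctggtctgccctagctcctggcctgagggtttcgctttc
Tnfrsf18, GITR, chr4:156026072-156026321, plus strand: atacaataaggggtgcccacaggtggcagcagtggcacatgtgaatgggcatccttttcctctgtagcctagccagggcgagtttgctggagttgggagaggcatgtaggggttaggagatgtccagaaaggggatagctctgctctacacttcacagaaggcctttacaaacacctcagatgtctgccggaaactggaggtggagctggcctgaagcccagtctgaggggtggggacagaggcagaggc
Ltb, lymphotoxin beta, chr17:35194257-35194506, plus strand: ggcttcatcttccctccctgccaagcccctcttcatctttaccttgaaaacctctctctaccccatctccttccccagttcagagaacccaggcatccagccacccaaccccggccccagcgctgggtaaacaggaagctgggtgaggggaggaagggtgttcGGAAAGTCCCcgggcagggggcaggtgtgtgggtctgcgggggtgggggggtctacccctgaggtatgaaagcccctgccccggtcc
The Ltb promoter has its kappa B match 87 bases before the start, and Tnfrsf1b has GC boxes beginning 67 and 57 bases before it. The windows of Cd27 and Tnfrsf18 hold no match to the 4 motifs. Over the family, 28 of 37 genes had a promoter entry, with 32 promoters of 250 bases. A kappa B match was present in 4 of these 32 (12.5%, at Ltb, Tnfrsf25, Tnfrsf8 and Tnfrsf9) and in 7.25% of all 32851 promoters. The GC box was present in 43.8% of family promoters and 32.7% of all, the Runx core in 6.25% and 14.0%, and TATAAA in 15.6% and 12.4%. No match of one motif overlapped another motif in the 4 promoters shown.

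Family members showed modest differences between the groups. In limma, 5 of 37 genes passed an adjusted p of 0.05 (13.5%), against 3133 of 18193 genes in all (17.2%), so the family's share was not above the background. Higher in AKR F1 were 3 receptors, Cd27, Tnfrsf1b and Tnfrsf18 (background 8.91%). Higher in DBA F1 were the receptor Tnfrsf10b and the opposite-strand transcript Tnfsf13os (background 8.31%). Among ligands 0 of 13 passed in limma, 2 of them at an unadjusted p under 0.05, and 0 to 1 passed under the other limma settings run. Among receptors 4 of 23 passed (17.4%). The median difference was 0.06 over ligands, -0.11 over receptors and -0.01 over all genes. An unadjusted p under 0.05 was reached by 13 of 37 family genes and 36.2% of all genes. The arrays of one group lay entirely above those of the other for 14 of 37 family genes and 41.2% of all genes. AKR F1 was the higher group for 7 of these 14 (22% of all genes) and DBA F1 for the other 7 (19.2% of all genes).

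**Figure D1:**
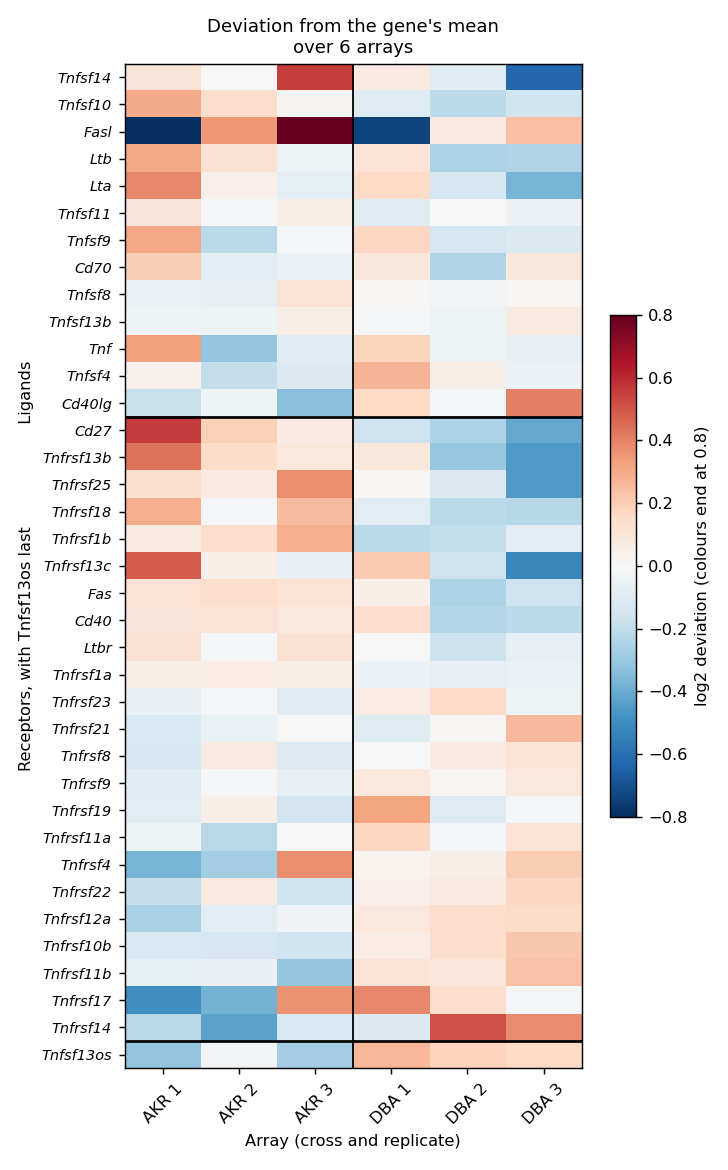
Deviation of each gene's log2 value from its own mean over 6 arrays, with arrays in columns and genes in rows (ligands above, receptors below, Tnfsf13os last), red for higher and blue for lower. Cd27 is highest in AKR F1 replicate 1 (7.27), and Tnfrsf14 is highest in DBA F1 replicates 2 and 3 (7.04 and 6.91).

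Leaving out AKR F1 replicate 1, 2 or 3 left 0, 2 or 1 family genes past the threshold, and leaving out DBA F1 replicate 1, 2 or 3 left 7, 0 or 0. The share of all genes that passed in those fits was 3.57%, 6.37% and 4.28% for AKR F1 and 19.0%, 4.55% and 5.99% for DBA F1. After quantile normalization 0 family genes passed in limma, beside 1858 genes in all.

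**Figure D2:**
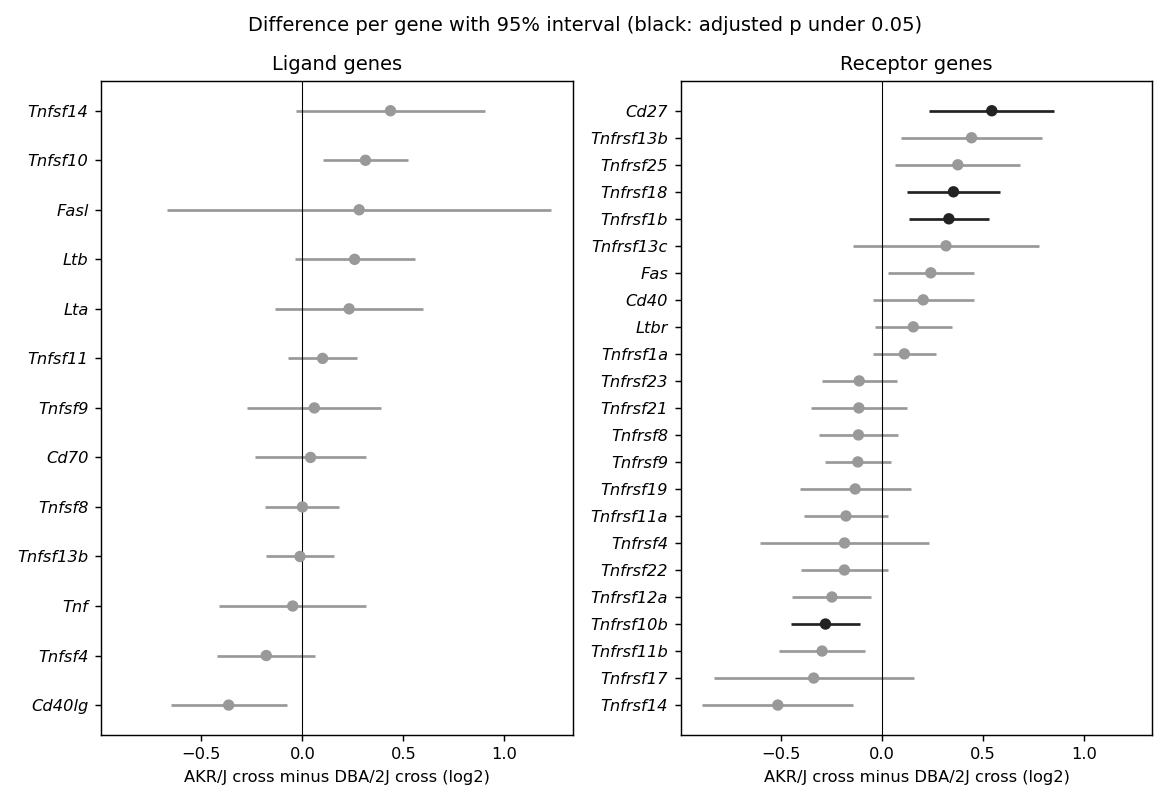
Difference per gene (x axis, log2, AKR F1 minus DBA F1) with limma's 95% interval, unadjusted, for 13 ligands and 23 receptors; black marks an adjusted p under 0.05. Cd27 has the highest receptor value (0.54) and Tnfrsf14 the lowest (-0.52).

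Cd27, a receptor of T cells, NK cells and some B cells that binds CD70, was higher in AKR F1. Its values were 7.27, 6.90 and 6.77 in AKR F1 replicates 1, 2 and 3 and 6.54, 6.46 and 6.30 in those of DBA F1. The groups did not overlap, and AKR F1 replicate 1 was well above the others. The difference was 0.54 ± 0.13 (SE), or 1.46-fold, with adjusted p = 0.0334 in limma. It missed the threshold without AKR F1 replicate 1 (adjusted p = 0.0759) or 2 (0.0669), without DBA F1 replicate 2 (0.0861) or 3 (0.0876), and after quantile normalization (0.0633). Its ligand Cd70, induced on activated lymphocytes and dendritic cells, differed by 0.04 (95% interval -0.24 to 0.32) at a dim probe set, meaning one below the 40th percentile of mean level among genes. T cell markers moved in the same direction as Cd27 (9 of 9 genes higher in AKR F1, differences of 0.37 to 0.69). Of the NK cell markers 2 of 5 were higher in AKR F1 (-0.02 to 0.97), and of the B cell markers 3 of 7 (-0.03 to 0.45). The background was 8.91% of all genes. The part of these cells in the Cd27 result was not tested.

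Tnfrsf18, which encodes GITR, a costimulatory receptor abundant on regulatory T cells, stood at 8.66, 8.35 and 8.62 in AKR F1 and at 8.27, 8.15 and 8.14 in DBA F1. All 3 AKR F1 arrays were above the DBA F1 arrays, by 0.07 at the closest pair. The difference was 0.35 ± 0.10, or 1.28-fold (adjusted p = 0.0479 in limma). Adjusted p was 0.140 without AKR F1 replicate 1, 0.130 without AKR F1 replicate 3, 0.127 and 0.117 without DBA F1 replicates 2 and 3, 0.0631 in the fit over all probe sets and 0.132 after quantile normalization. Of 4 regulatory T cell markers 0 passed in limma (17.2% of all genes), none of them at an unadjusted p under 0.05 (36.2% of all genes). The values were 0.18 for Foxp3, the lineage's transcription factor, 0.25 for Ikzf2, 0.03 for Il2ra and -0.06 for Ctla4. Foxp3 and Il2ra had dim probe sets. For Foxp3 and Ikzf2 all 3 AKR F1 arrays were above the DBA F1 arrays, as for 22% of all genes (unadjusted p = 0.0643 and 0.0521 in limma). The part of regulatory T cells in the Tnfrsf18 result was not tested. Tnfrsf4, which encodes OX40 and is the neighbouring coding gene of Tnfrsf18 on chromosome 4, did not pass. Tnfrsf4 values were 7.07, 7.17 and 7.82 in AKR F1 and 7.48, 7.50 and 7.65 in DBA F1, with AKR F1 replicate 3 above all others and the other AKR F1 arrays below all (-0.19 ± 0.18). Its ligand Tnfsf4, which encodes OX40 ligand, had a dim probe set and a value of -0.18 ± 0.11.

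Other costimulatory receptors did not pass, nor did those of their ligands that were measured. The ligand genes of Tnfrsf25 and Tnfrsf18 were not among the family members measured here. Tnfrsf25, which encodes the death receptor DR3 of T cells, had 6.36, 6.30 and 6.60 in AKR F1 and 6.24, 6.12 and 5.78 in DBA F1. Its groups did not overlap and its difference was 0.38 ± 0.13 (adjusted p = 0.0866 in limma). Tnfrsf9, which encodes 4-1BB, had 5.89, 5.98 and 5.92 against 6.07, 6.01 and 6.07, without overlap and with a value of -0.12 ± 0.07. At its other probe sets Tnfrsf9 had 0.15 and -0.06, so its sign differed between probe sets. Its ligand Tnfsf9 (0.06), the CD30 gene Tnfrsf8 (-0.12) and the CD30 ligand gene Tnfsf8 (0.00, 95% interval -0.18 to 0.18) had dim probe sets.

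CD40 on B cells and dendritic cells receives the CD40 ligand of activated T cells. At its brightest probe set Cd40 had 8.81, 8.82 and 8.78 in AKR F1 and 8.84, 8.47 and 8.49 in DBA F1. The arrays overlapped through DBA F1 replicate 1, and the difference of 0.20 ± 0.11 did not pass (adjusted p = 0.209 in limma). Without that array it was 0.32, with adjusted p = 0.0282 in limma, in a fit where 19.0% of all genes passed. Dropping the array that made the overlap widens the difference by design, so this fit is no support for it. Cd40 passed under 1 of the 14 other limma settings run, and after quantile normalization the difference was 0.13 (adjusted p = 0.485). The other Cd40 probe sets differed by 0.39 ± 0.12 and 0.43 ± 0.11 without overlap, and the second passed in the fit over all 45037 probe sets (adjusted p = 0.0428, background 10.4%). Cd40lg, on the X chromosome, had the opposite sign, with 4.06, 4.20 and 3.90 in AKR F1 and 4.39, 4.22 and 4.64 in DBA F1. Its probe set was dim, the nearest pair of arrays was 0.018 apart, and the difference of -0.37 ± 0.13 did not pass (adjusted p = 0.0784).

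**Figure D3:**
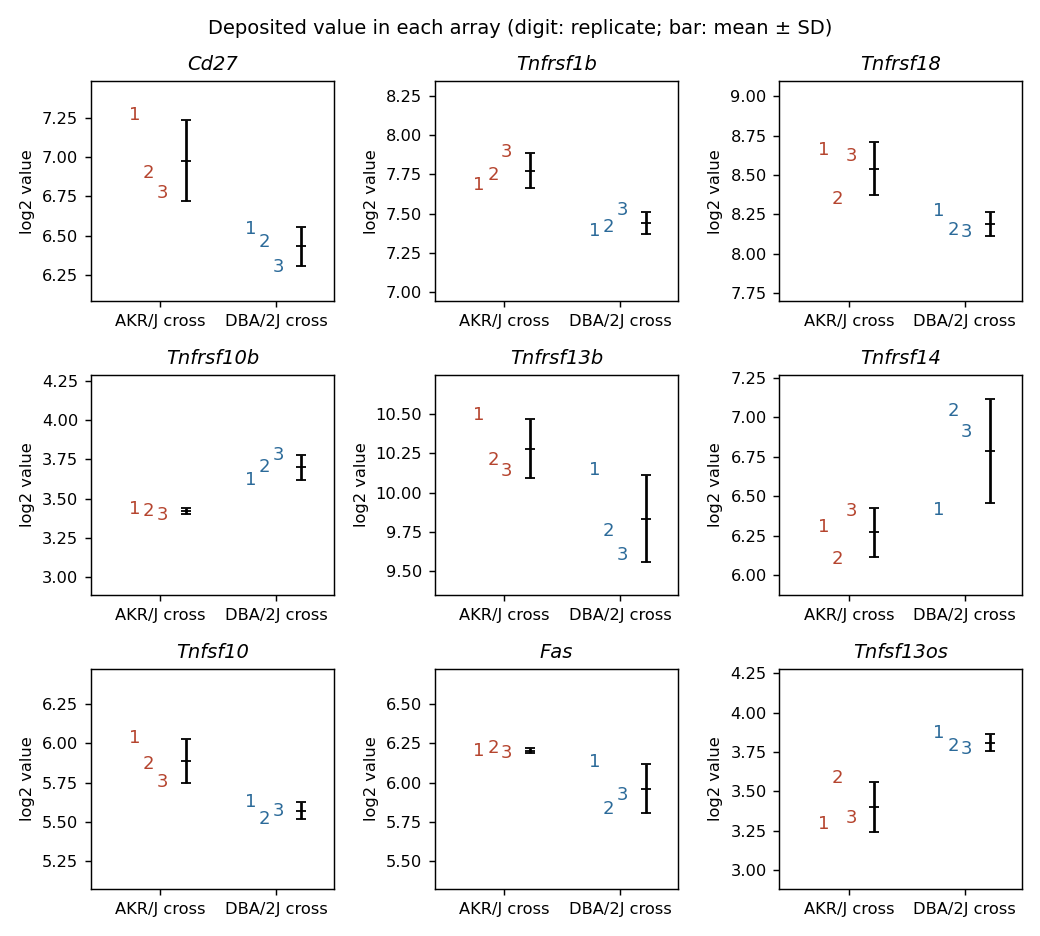
Deposited log2 value (y axis) of 9 family genes in each array, by group (x axis), with digits for replicate numbers and bars for mean ± SD (n = 3 each); every panel spans the same range of log2 units. Cd27, Tnfrsf1b and Tnfrsf18 sit higher in AKR F1, and Tnfrsf10b and Tnfsf13os lower.

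Tnfrsf1b, TNF receptor 2, binds TRAF2 and is prominent on lymphocytes and myeloid cells. Its values were 7.68, 7.75 and 7.89 in AKR F1 and 7.39, 7.41 and 7.52 in DBA F1. The groups did not overlap, and the difference was 0.33 ± 0.09, or 1.26-fold (adjusted p = 0.0370 in limma). The other Tnfrsf1b probe set stood at 6.25 and 6.26 and differed by -0.01 ± 0.08, so the call rests on 1 of 2 probe sets. Tnfrsf1b missed the threshold whichever array was left out (adjusted p = 0.0622 to 0.104), with the mean of its probe sets (0.160), in the fit over all probe sets (0.0510) and after quantile normalization (0.110).

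Tnfrsf1a, TNF receptor 1 with its death domain, had 9.13, 9.14 and 9.13 in AKR F1 and 9.03, 9.01 and 9.02 in DBA F1. Its arrays were close within each group and did not overlap, but the difference of 0.11 ± 0.07 was small and did not pass (adjusted p = 0.268 in limma, whose variance is moderated toward that of other genes). The ligand gene Tnf had 5.67, 5.03 and 5.24 against 5.52, 5.30 and 5.27, which overlapped (-0.05, 95% interval -0.41 to 0.32). After leaving out AKR F1 replicate 2 the sign of Tnf turned (0.09).

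The lymphotoxin genes lie beside Tnf on chromosome 17, within the major histocompatibility complex, with 0 coding genes between neighbours. Ltb had 11.92, 11.73 and 11.57 in AKR F1 and 11.72, 11.35 and 11.37 in DBA F1, with DBA F1 replicate 1 inside the AKR F1 range. Its difference was 0.26 ± 0.13 (adjusted p = 0.186 in limma). Lta gave 6.96, 6.61 and 6.49 against 6.73, 6.44 and 6.203, again with DBA F1 replicate 1 within the AKR F1 range (0.23 ± 0.16). Their stromal and myeloid receptor Ltbr, close to Cd27 and Tnfrsf1a on chromosome 6, differed by 0.16 ± 0.08 (adjusted p = 0.212). Tnfsf14 encodes LIGHT, a T cell ligand of LTBR and HVEM, and its difference of 0.44 ± 0.20 at a dim probe set did not pass. Tnfrsf14 encodes HVEM, which binds LIGHT and also the inhibitory receptor BTLA. Its values were 6.30, 6.10 and 6.41 in AKR F1 and 6.41, 7.04 and 6.91 in DBA F1. DBA F1 replicate 1 lay 0.0076 above the highest AKR F1 array, and the other DBA F1 arrays lay clearly above. The difference of -0.52 ± 0.16, or 1.43-fold higher in DBA F1, did not pass (adjusted p = 0.0629 in limma). Tnfrsf14 passed without DBA F1 replicate 1 (-0.70, adjusted p = 0.00899) and with array weights (-0.65, adjusted p = 0.0164). These were 2 of the 14 other limma settings run. Adjusted p ranged up to 0.171 over them and was 0.0525 after quantile normalization.

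BAFF and APRIL sustain B cells and plasma cells through 3 receptors. Tnfsf13b, the BAFF gene, had 6.70, 6.70 and 6.78 in AKR F1 and 6.73, 6.69 and 6.81 in DBA F1. These values overlapped, with a difference of -0.01 and a 95% interval of -0.18 to 0.16. Tnfrsf13b, which encodes TACI, had 10.49, 10.20 and 10.14 against 10.14, 9.75 and 9.60. The groups overlapped only at AKR F1 replicate 3 and DBA F1 replicate 1, and the difference of 0.44 ± 0.15 did not pass (adjusted p = 0.0788 in limma). Tnfrsf13b passed without DBA F1 replicate 1 (0.60, adjusted p = 0.0204), with array weights (0.50, adjusted p = 0.0288) and with the replicate number as a block (adjusted p = 0.0284). These were 3 of the 14 other limma settings run. Adjusted p ranged up to 0.212 over them and was 0.138 after quantile normalization. Tnfrsf13c, the BAFF receptor of mature B cells, had 9.82, 9.38 and 9.27 against 9.54, 9.17 and 8.81. These overlapped too (0.32 ± 0.20, adjusted p = 0.284). In both genes AKR F1 replicate 1 was highest and DBA F1 replicate 3 lowest. The mean of the B cell markers was 10.81, 10.64 and 10.71 in AKR F1 and 10.67, 10.38 and 10.39 in DBA F1, and its part in these values was not tested. Tnfrsf17 encodes BCMA, the receptor of plasma cells, and its dim probe set ranged from 4.22 to 5.07 in AKR F1 and from 4.70 to 5.09 in DBA F1 (-0.34 ± 0.22).

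Among death receptors, Tnfrsf10b, the TRAIL receptor DR5, was higher in DBA F1. It had 3.44, 3.42 and 3.40 in AKR F1 and 3.62, 3.70 and 3.78 in DBA F1. The groups did not overlap, and the difference was -0.28 ± 0.07, or 1.21-fold higher in DBA F1 (adjusted p = 0.0405 in limma). The probe set was dim, at percentile 19 of mean level among genes. Its other probe set gave -0.23 ± 0.09. Tnfrsf10b passed without DBA F1 replicate 1 (adjusted p = 0.0318), and missed the threshold without any of the other arrays (0.0978 to 0.113), with each array centred on its median (0.0601), with a trended and robust variance (0.0532), with the replicate block (0.0631), in the fit over all probe sets (0.0578) and after quantile normalization (0.174). The TRAIL gene Tnfsf10 had the opposite sign. Tnfsf10 values were 6.03, 5.87 and 5.75 in AKR F1 and 5.63, 5.52 and 5.57 in DBA F1, without overlap (0.31 ± 0.09, adjusted p = 0.0503 in limma). Its 3 probe sets gave 0.31, 0.24 and 0.22. Tnfsf10 passed under 3 of the 14 other limma settings run. These were median centring of each array (adjusted p = 0.0434), dim genes left out (0.041) and array weights (0.0285). Adjusted p ranged up to 0.139 over the 14 settings and was 0.0804 after quantile normalization.

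Tnfrsf22 and Tnfrsf23, neighbours on chromosome 7 that encode TRAIL receptors without a death domain, had values of -0.19 ± 0.09 and -0.11 ± 0.08 at dim probe sets. The other Tnfrsf22 probe sets gave -0.01 ± 0.12 and 0.07 ± 0.11, so its sign differed between probe sets. Fas, the death receptor that limits lymphocyte numbers, had 6.199, 6.22 and 6.19 in AKR F1 and 6.13, 5.83 and 5.92 in DBA F1. The AKR F1 arrays were tightly grouped and all above the others, and the difference of 0.24 ± 0.09 did not pass (adjusted p = 0.102 in limma). Fas passed without DBA F1 replicate 1 (0.33, adjusted p = 0.0303) and with array weights (0.30, adjusted p = 0.0349). These were 2 of the 14 other limma settings run. Adjusted p ranged up to 0.269 over them and was 0.229 after quantile normalization. Fasl, its ligand on cytotoxic cells, had the largest SD of the 37 genes in both groups (0.86 and 0.53), with 5.50, 6.65 and 7.18 against 5.56, 6.38 and 6.54. Replicate 1 was the lowest array of each group, as it was for the T cell gene Ctla4 (5.38 and 5.39), and the 95% interval of the difference ran from -0.67 to 1.23. Tnfrsf21, which encodes the death receptor DR6, gave -0.11 ± 0.10.

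The receptors of RANK ligand and TWEAK, and TROY, did not pass. Tnfrsf11b encodes osteoprotegerin, a secreted decoy for RANK ligand, and had 4.17, 4.18 and 3.93 against 4.36, 4.34 and 4.47 (-0.30 ± 0.09, adjusted p = 0.0621 in limma). That probe set was dim, and the other Tnfrsf11b probe set gave -0.02 ± 0.09. The RANK gene Tnfrsf11a gave -0.18 ± 0.09, and the RANK ligand gene Tnfsf11, needed for lymph node and osteoclast formation, gave 0.10 ± 0.07 at a dim probe set. Tnfrsf12a encodes FN14, the TWEAK receptor, and had 5.82, 5.997 and 6.05 against 6.16, 6.22 and 6.23, without overlap (-0.25 ± 0.08, adjusted p = 0.0781 in limma). At the other Tnfrsf12a probe set the groups overlapped (-0.10 ± 0.11). Tnfrsf19, which encodes TROY, differed by -0.13 ± 0.12 and had the opposite sign at 1 of its 3 probe sets (0.26).

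Tnfsf13os is annotated on the strand opposite the APRIL gene, and no probe set with a single symbol gave APRIL or TWEAK itself, since 3 probe sets that name several genes, among them these ligands, were left out. It had 3.29, 3.58 and 3.33 in AKR F1 and 3.87, 3.79 and 3.77 in DBA F1. The groups did not overlap at this dim level, and the difference was -0.41 ± 0.10 (adjusted p = 0.0296 in limma). Its other probe set gave -0.19 ± 0.11 and did not pass. Tnfsf13os missed the threshold without DBA F1 replicate 1 (adjusted p = 0.0501), 2 (0.0789) or 3 (0.0630), without AKR F1 replicate 1 (0.0940) or 3 (0.0866), with the mean of its probe sets (-0.30, 0.0710) and after quantile normalization (0.0734).

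**Figure D4:**
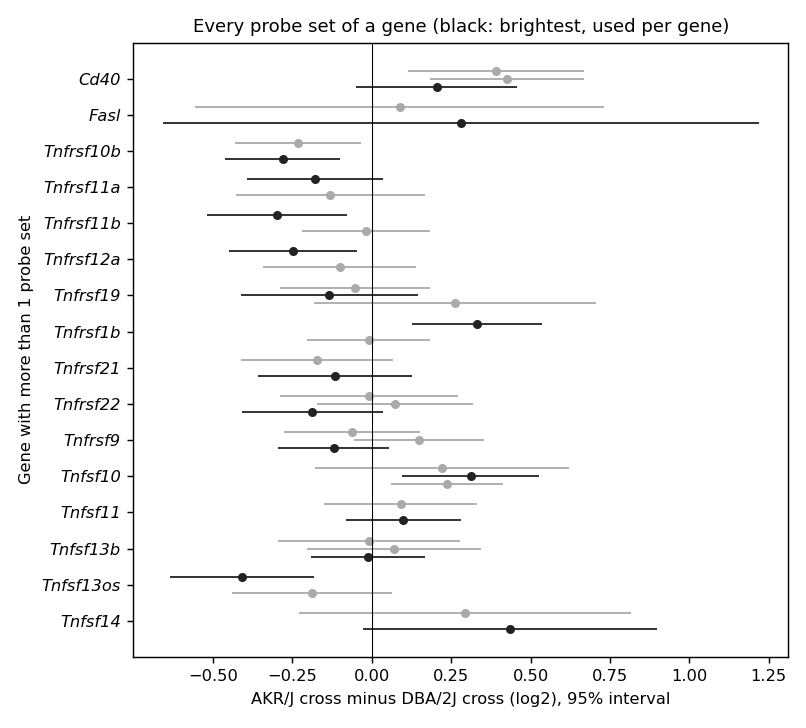
Difference (x axis, log2) with 95% interval for every probe set of the 16 family genes that have more than 1; black is the brightest probe set, used per gene. In 11 of the 16 genes all probe sets have the same sign, and in 5, Tnfrsf1b and Tnfrsf9 among them, they do not.

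Sign followed signal level among the receptors, as in the whole data set. Genes were divided at the 40th percentile of mean level. Below it 2 of 15 family genes passed, Tnfrsf10b and Tnfsf13os (13.3%, against 12.2% of all genes there), and above it 3 of 22 (13.6%, against 20.5%). Among the 7 receptors below it, 0 had a positive difference (median -0.19), and among the 16 above it 10 did (median 0.18). Of all dimmer genes 24.7% were positive (median -0.12), and of all brighter genes 64.7% (median 0.09). Dim ligands did not follow this, with 5 of 7 positive (median 0.04). Quantile normalization, which gives all arrays 1 distribution, brought the medians of all dimmer and all brighter genes to -0.04 and 0.02, and the dim and bright receptors were then at -0.15 and 0.10, with 0 of 7 and 10 of 16 positive as before. Of all genes that passed as deposited, AKR F1 had the higher signal for 51.7%, against 62.5% with each array centred on its median and 41.2% after quantile normalization.

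**Figure D5:**
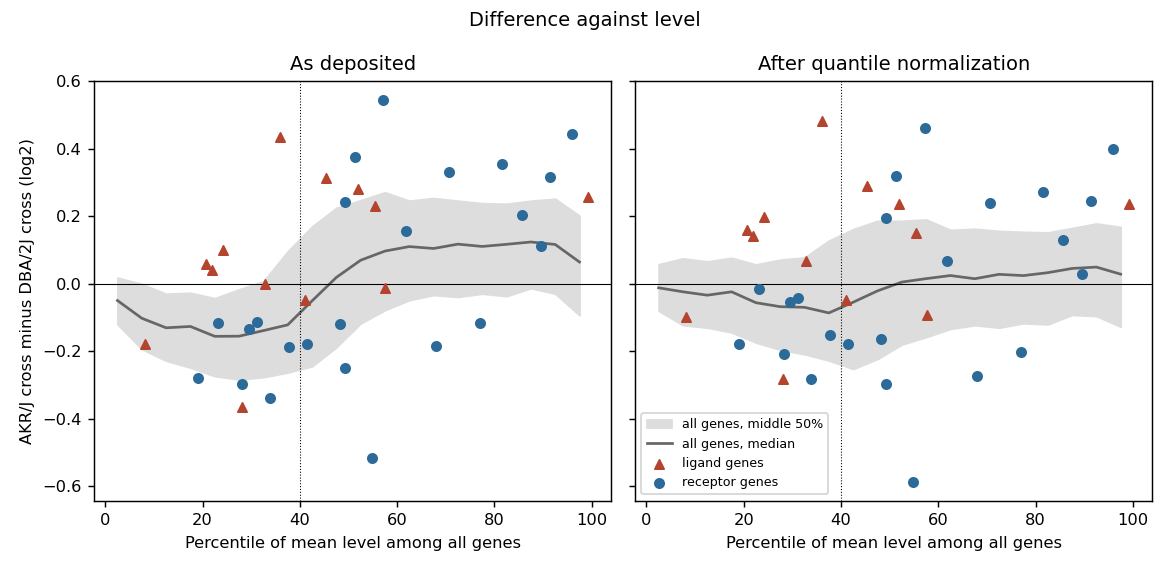
Difference (y axis, log2) against the percentile of mean level among all genes (x axis) for ligands (triangles) and receptors (circles), as deposited and after quantile normalization; the grey line and band are the median and middle 50% of all genes in 20 bins, and the dotted line is the 40th percentile. The grey median runs below 0 for dim genes and above 0 for bright genes as deposited, and lies closer to 0 after quantile normalization.

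Downstream of these receptors, TRAF adaptors, kinases and NF-kB subunits had mostly positive values. Of 29 measured genes of this list, 6 were higher in AKR F1 and 0 in DBA F1 (20.7%, against 20.5% of all genes above the 40th percentile, where all 29 lie). The median was 0.21 and 25 of 29 were positive (86.2%). Of all genes above the 40th percentile 64.7% were positive, with a median of 0.09. Traf1, an adaptor induced by NF-kB, differed by 0.57 ± 0.10 (adjusted p = 0.0151 in limma) and Ikbkb, the kinase that releases NF-kB, by 0.49 ± 0.09 (adjusted p = 0.0147). The NF-kB subunit gene Rel differed by 0.45, Tradd, the adaptor of TNF receptor 1, by 0.32, the linear ubiquitin ligase gene Rnf31 by 0.30 and the deubiquitinase gene Cyld by 0.26. The inhibitor genes Nfkbia and Tnfaip3 are induced by NF-kB, and their values of 0.19 and 0.39 did not pass. After quantile normalization 21 of 29 were positive (72.4%, against 53.5% of all genes above the 40th percentile) and 2 passed (6.9%, against 13.3%). With 1 array left out 0 to 10 passed.

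Of 10 measured genes of death signalling, 3 were higher in AKR F1 and 0 in DBA F1 (median 0.22): Faim, an inhibitor of FAS-induced death (0.47 ± 0.11), the necroptosis kinase gene Ripk3 (0.34 ± 0.07) and Casp8, the caspase recruited by death receptors (0.27 ± 0.07). All 10 lie above the 40th percentile, where 20.5% of all genes passed and 64.7% were positive, and 9 of the 10 were positive. After quantile normalization 0 of the 10 passed in limma, against 13.3% of all genes above the 40th percentile. The adaptor gene Fadd had -0.11. Of 7 lymphotoxin-dependent tissue genes 2 were higher in AKR F1, Cr2 (0.45 ± 0.09), which B cells and follicular dendritic cells express, and the adhesion molecule gene Icam1 (0.44 ± 0.12). These 7 genes also lie above the 40th percentile (background 20.5%), and 1 of them passed after quantile normalization (background 13.3%). The follicle chemokine gene Cxcl13 had -0.21 and did not pass. Of 7 genes that shed or process family ligands 1 passed, Sppl2b, an intramembrane protease, which was higher in DBA F1 (-0.70 ± 0.13, adjusted p = 0.0151), against the same background of 20.5%. Adam17, the sheddase of TNF, had 0.23 and did not pass. Among 6 related genes outside the naming rule, 0 passed in limma (17.2% of all genes). An unadjusted p under 0.05 (36.2% of all genes) was reached by 1, Edar, a receptor of skin appendage formation (-0.18).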

How the data were processed

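RNA of 6 spleen samples from F1 females was labelled with biotin and hybridised to Affymetrix arrays, per the labels' protocols. The deposited values are, by their range, log2 probe set values; no source used here gives their scaling. RMA and MAS5 are named, per the submitters' processing notes, without role or version. Groups and replicate numbers came from the titles. Of 45101 probe sets, 64 controls were left out, 34945 had 1 symbol, 932 several and 9160 are unnamed here. All 37 members matched GRCm38.p6 by gene identifier. Differences were tested with limma 3.58.1 in R 4.3.3 (lmFit, eBayes, no covariate) on the brightest probe set of each of 18193 genes, with Benjamini-Hochberg adjustment over all of them, and separately over 45037 probe sets. The procedure was run on simulated data with planted differences, drawn independently for each gene and array. Those data lacked any structure shared between genes or arrays, so the run says nothing about such structure here. With 3 arrays a group the smallest exact permutation p is 0.1, which is why limma's moderated variance was used. With 6 arrays and no detection calls, the number of arrays limits the precision. A parental variant under a probe can change its signal, which was not tested.

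Members and lists were chosen with earlier results of these data known. All members could be named. From other lists, up to 8 genes past the threshold could be named, and further genes were chosen after their values were seen. Alternatives were median centring, quantile normalization, a filter on dim genes, a trended and robust variance, weights per array, a block for replicate number, averaging the probe sets of a gene, 1 fit over all probe sets, and leaving out each array.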

Additional observations from a re-analysis of the deposited data

How the results depend on the processing

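With 3 arrays a group, most calls here are near the threshold. Receptors higher in AKR F1 numbered 3, and 0 after quantile normalization, 5 with array weights, 1 in the fit over all probe sets and 0 to 5 with 1 array left out. Receptors higher in DBA F1 numbered 1, and 0 with median centring, quantile normalization, dim genes left out, the trended variance, the replicate block and the fit over all probe sets, 2 with array weights and 0 to 2 with 1 array left out. Ligands higher in AKR F1 numbered 0, and 1 (Tnfsf10) with median centring, dim genes left out and array weights. Signalling genes higher in AKR F1 numbered 6, and 2 after quantile normalization, 10 with array weights, 3 when the probe sets of a gene were averaged and 0 to 10 with 1 array left out. All genes past the threshold numbered 3133 (17.2%), and 1858 (10.2%) after quantile normalization and 650 to 3451 (3.57% to 19.0%) with 1 array left out. The share of all genes was 23.8% with array weights, 18.0% with median centring and 17.9% with the trended variance. It was 24.0% with dim genes left out, 14.8% with the replicate block, 14.3% with averaged probe sets and 12.5% in the fit over all probe sets. The cause of these moves was not tested, except that leaving out an array removes samples. The sign turned for members near 0: Tnfsf13b with median centring (0.0197) and with the mean of its probe sets (0.0165), Tnfsf8 with array weights (-0.0047) and Tnfrsf19 with the mean of its probe sets (0.0253). With 1 array left out the range spanned 0 for Tnfsf13b (-0.0391 to 0.02005), Tnfsf8 (-0.0585 to 0.0331), Cd70 (-0.0697 to 0.10), Tnfsf9 (-0.0810 to 0.18), Tnf (-0.23 to 0.0933) and Fasl (-0.0865 to 0.75). Same-numbered arrays of both groups had r of their deviations across genes of 0.17, 0.13 and -0.01, and arrays of unlike number -0.23 to 0.09. The labels state no pairing, so the main fit used none, and these values do not settle whether the numbers mark pairs. The replicate block lowered the SE of Fasl (0.41 to 0.14), Tnfrsf13c (0.20 to 0.08) and Lta (0.16 to 0.07). It raised that of Cd40lg (0.13 to 0.14) and Tnfsf14 (0.20 to 0.23). With the replicate block 2686 genes passed, and the family had 5, with Tnfrsf13b in (adjusted p = 0.0284) and Tnfrsf10b out (0.0631).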
